A study of Homo sapiens with 8 samples.

Results

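LUCAT1, NKILA and WAKMAR2 are long noncoding RNAs (lncRNAs) of the stress and NF-kB responses, and their levels were followed in 2 liver cancer cell lines treated with the BET inhibitor JQ1. They were taken by Ensembl gene ID from the tables of both lines, which gave 3 members with values in all 8 libraries, out of 15469 loci with values. Cells of the lines HepG2 and LM3, each labelled as a hepatocellular carcinoma line, had been given JQ1 or DMSO as vehicle. The groups were HepG2 with JQ1, HepG2 with vehicle, LM3 with JQ1 and LM3 with vehicle, each with 2 libraries of total RNA depleted of ribosomal RNA. The labels give no dose and no duration of treatment, and nothing says that the replicates were separate cultures, so the p-values refer to the spread among these particular libraries, and that spread may be technical.

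JQ1 occupies the acetyl-lysine pockets of the BET proteins, a family of chromatin readers. NF-kB is a transcription factor of inflammation that its inhibitor IkB holds in the cytoplasm until a signal arrives. LUCAT1 was first described in airway cells exposed to cigarette smoke, is induced through the oxidative stress factor NRF2 and, in immune cells, restrains interferon genes. NKILA is itself induced by NF-kB and binds the NF-kB and IkB complex, where it shields IkB from phosphorylation. WAKMAR2 was named for its role in wounded skin, where it dampens the inflammatory chemokines of keratinocytes, and its gene lies head to head with TNFAIP3, which encodes A20, a protein that ends NF-kB signalling.

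Levels are in FPKM (fragments per kilobase of transcript, scaled to the sequenced total) as deposited. Fold changes are differences of log2(FPKM + 0.5), JQ1 minus vehicle, tested with limma within each line over loci that averaged 0.5 FPKM or more, and called at a Benjamini-Hochberg adjusted p under 0.05. FPKM summed to between 31309 and 32765 in the HepG2 JQ1 libraries and 29369 and 30699 with vehicle, and to between 34148 and 34771 in the LM3 JQ1 libraries and 34066 and 35742 with vehicle. Of this sum, loci of ribosomal RNA and mitochondria took 17.1% and 18.1% in HepG2 with JQ1 and 15.3% and 15.9% with vehicle, and 21.2% and 22.8% in LM3 with JQ1 and 18.9% and 19.6% with vehicle. The part of this shift in the results was not tested, but the fold changes were recomputed with each library rescaled to its sum outside these loci. Of the liver-associated lncRNAs used to check the lines, H19 was at 2038 FPKM or more in the HepG2 libraries and 309.7 FPKM or more in the LM3 libraries, HULC lay between 0.50 and 0.80 FPKM in all 8, and LINC01485 and LINC00261 were at 0.06 FPKM or below in LM3. That list held 9 lncRNAs, of which 6 had values, and LINC01554 did not exceed 0.31 FPKM in any library. Of its tested members, 2 of 4 fell in HepG2 (CPS1-IT1 and LINC01485) and 1 of 3 in LM3 (CPS1-IT1). Of all tested loci 14.2% were called lower in HepG2 and 15.4% in LM3. H19 (0.017 in HepG2 and 0.00084 in LM3 on the log2 scale) and HULC (-0.14 and 0.0085) were not called. CPS1-IT1 was at 1.33 and 1.22 FPKM in HepG2 with JQ1, against 6.84 and 6.79 FPKM with vehicle, and the part of this difference in the results was not tested. The 5 blood-cell lncRNAs with values, of 8 listed, summed to no more than 1.16 FPKM in any library, most of it LINC00926. Fewer cells that express a gene and less of its RNA per cell cannot be told apart in such bulk libraries.

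LUCAT1 (ENSG00000248323) lies on chromosome 5, 91054834 to 91314547, minus strand of GRCh38, and GENCODE 29 gives it 55 transcripts. Of these, 16 begin at the RefSeq start site and 40 begin within the RefSeq promoter window of 250 bases before to 50 after that site. The window is shown because LUCAT1 fell with JQ1 in both lines and because its sequence holds a motif of the oxidative stress response. It covers chr5:91314353-91314652, minus strand of GRCh38.p14, with the motif matches in capitals:
LUCAT1: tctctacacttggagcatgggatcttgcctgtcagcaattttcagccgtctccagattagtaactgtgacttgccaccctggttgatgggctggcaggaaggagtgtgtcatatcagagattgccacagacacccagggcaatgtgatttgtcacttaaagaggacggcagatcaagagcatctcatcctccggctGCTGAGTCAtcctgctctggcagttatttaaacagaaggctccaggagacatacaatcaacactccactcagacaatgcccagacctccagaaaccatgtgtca
The capitals mark 2 overlapping matches. The antioxidant response element core TGACNNNGC, the motif of NRF2, was found on the opposite strand from position -54 to -46, and the AP-1 motif TGANTCA, bound by the stress factors JUN and FOS, from -52 to -46. In 35116 RefSeq promoters of the same length, searched on both strands, 13.3% hold the first motif and 7.71% the second. Neither the strict NF-kB consensus (in 0.191% of promoters) nor a relaxed form of it with free middle positions (1.61%) nor the hypoxia core ACGTG (21.4%) occurred in the LUCAT1 window.

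In HepG2, LUCAT1 stood at 7.54 and 7.35 FPKM with JQ1, against 11.87 and 12.93 FPKM with vehicle. Both JQ1 libraries lay below both vehicle libraries, and the gap between the groups was several times that within either. The means were 7.45 ± 0.134 FPKM with JQ1 and 12.4 ± 0.750 FPKM with vehicle (SD, n = 2 each). LUCAT1 was thus lower by -0.70 on the log2 scale (SE 0.080, 95% interval -0.91 to -0.49, limma adjusted p = 0.0103), and the ratio of JQ1 to vehicle was 0.600. It ranked 418th and 452nd from the top among loci above 0 in the JQ1 libraries, against 261st and 234th in the vehicle libraries, so it remained among the more abundant lncRNAs of this line. By the same test 14.2% of the 5906 loci tested in HepG2 were called lower and 10.8% higher, and 33.9% of the tested loci had both JQ1 libraries below both vehicle libraries. The excess of lower calls depended on scaling, with 840 lower and 640 higher as deposited, 786 and 809 when libraries were centred at their medians, 818 and 758 when quantile-normalized, and 957 and 571 when rescaled outside ribosomal RNA and mitochondrial loci. LUCAT1 was called lower under each of these scalings.

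In LM3, where LUCAT1 was scarcer, it stood at 0.80 and 1.00 FPKM with JQ1, against 2.29 and 2.36 FPKM with vehicle. The groups again did not overlap. The mean with JQ1 was 0.900 ± 0.141 FPKM and that with vehicle 2.33 ± 0.0495 FPKM (SD, n = 2 each), a ratio of 0.387 and a log2 fold change of -1.02 (SE 0.11, 95% interval -1.31 to -0.72, limma adjusted p = 0.011). Its percentile among loci above 0 was 58.6 and 68.6 with JQ1 and 84.3 and 84.8 with vehicle. Here 15.4% of the 6474 loci tested were called lower and 7.92% higher, and 39.7% had both JQ1 libraries below both vehicle libraries. The split was 998 lower and 513 higher as deposited, 770 and 700 when libraries were centred at their medians, and 732 and 715 when they were quantile-normalized, and the fold change of LUCAT1 was -0.93 and -0.91 under these scalings. Of 5035 loci tested in both lines, 8.70% were called lower in each, and LUCAT1 was one of them.

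**Figure D1:**
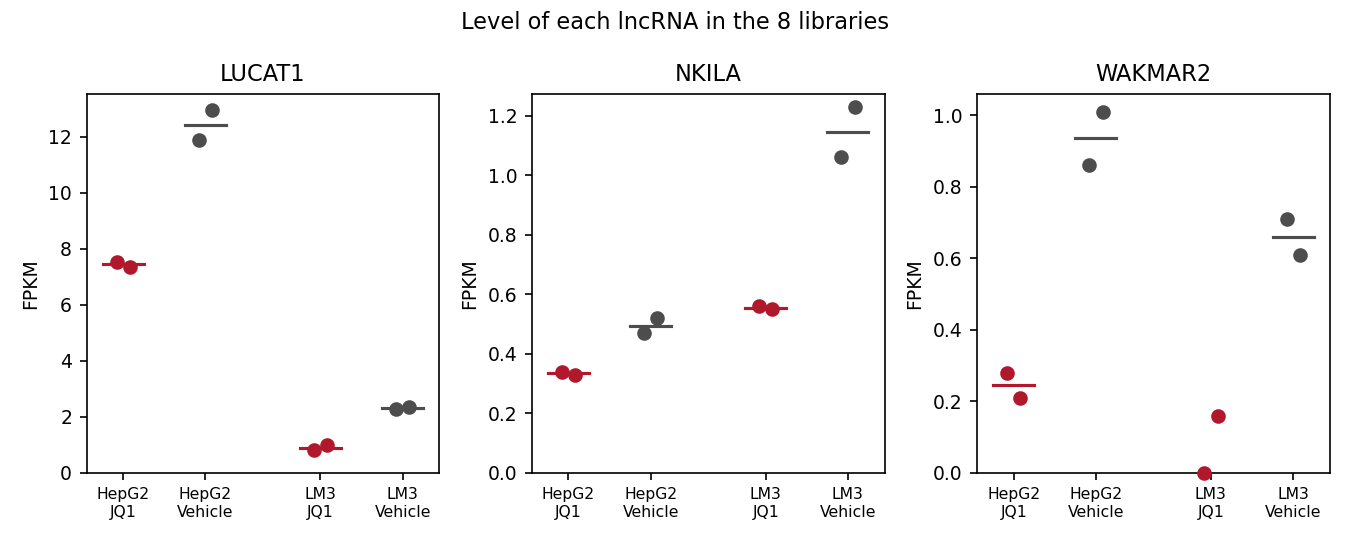
FPKM of LUCAT1, NKILA and WAKMAR2 in each library (points; red with JQ1, grey with vehicle; 2 libraries per group), with the group mean as a bar except where a library is listed at 0. Each vertical axis starts at 0 and has its own scale. In each panel and line both JQ1 points lie below both vehicle points, as in 33.9% of tested loci in HepG2 and 39.7% in LM3. The gap is least for NKILA in HepG2 (0.34 and 0.33 against 0.47 and 0.52 FPKM).

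NKILA (ENSG00000278709) is a short gene on chromosome 20, 57710156 to 57712780 in the tables, plus strand of GRCh38. It has 2 transcripts in GENCODE 29, both from the RefSeq start. The first part of the gene runs antisense through PMEPA1, a gene induced by TGF-beta, with 1381 bases of overlap between the genes and 343 bases between their exons, 13.2% of NKILA's exon length. Because no source used here gives the strand setting of the counting, reads of NKILA and PMEPA1 cannot be told apart there. The window at the start of NKILA (chr20:57709933-57710232, plus strand of GRCh38.p14) is shown for contrast with that of LUCAT1, since it differs from it in base composition and in the motifs found:
NKILA: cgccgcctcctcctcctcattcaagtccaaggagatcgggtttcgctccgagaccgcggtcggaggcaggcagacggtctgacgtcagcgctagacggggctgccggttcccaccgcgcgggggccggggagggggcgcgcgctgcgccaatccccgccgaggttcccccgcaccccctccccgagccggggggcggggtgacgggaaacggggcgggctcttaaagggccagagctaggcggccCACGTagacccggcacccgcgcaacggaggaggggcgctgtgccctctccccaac
The capitals mark the match to the hypoxia core ACGTG, on the opposite strand from -5 to -1, and neither NF-kB form, the antioxidant core nor the AP-1 motif occurred. The window is 73.7% G and C with 37 CG pairs, while that of LUCAT1 is 49.7% G and C with 3, and the median over all promoters is 58.7% with 14. NKILA thus has a CpG-rich start and LUCAT1 does not. WAKMAR2 had no entry in the promoter table.

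In LM3, NKILA stood at 0.56 and 0.55 FPKM with JQ1, against 1.06 and 1.23 FPKM with vehicle. The JQ1 libraries were nearly equal and both lay well below the vehicle libraries, an order that 39.7% of the loci tested in LM3 had. The means were 0.555 ± 0.00707 FPKM with JQ1 and 1.15 ± 0.12 FPKM with vehicle (SD, n = 2 each), a ratio of 0.485. NKILA was called lower, with a log2 fold change of -0.64 (SE 0.11, 95% interval -0.94 to -0.34, limma adjusted p = 0.0257). The call was lost when loci of all levels were tested (adjusted p = 0.0544, 14050 loci).

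In HepG2, NKILA was at 0.34 and 0.33 FPKM with JQ1, against 0.47 and 0.52 FPKM with vehicle. The direction was that seen in LM3 and the groups did not overlap, as in 33.9% of the loci tested in HepG2. The mean of NKILA over the 4 libraries, 0.415 FPKM, was under the filter and NKILA was not tested. The ratio of JQ1 to vehicle was 0.677. On the log2 scale the difference was -0.25, with a 95% interval from -0.54 to 0.032 in the fit without the filter (limma adjusted p = 0.252 over 14354 loci), so a change of NKILA in HepG2 was not detectable at this level.

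WAKMAR2 (ENSG00000237499) lies on chromosome 6, 137823673 to 137868233, minus strand of GRCh38. GENCODE 29 lists this ID as AL357060.1, with 6 transcripts, and the names table gives it as WAKMAR2. Its first 1046 bases overlap TNFAIP3 on the opposite strand, and 95 bases are exon of both genes, 2.32% of the exon length of WAKMAR2. As for NKILA, reads of WAKMAR2 and TNFAIP3 cannot be told apart there. A locus of the authors' own, LXLOC_048968, covers 13382 bases of its upstream part on the same strand and could take some of its reads. LXLOC_048968 was listed at 0 in both HepG2 JQ1 libraries, against 0.08 and 0 FPKM with vehicle, and in LM3 at 0.08 and 0 FPKM with JQ1, against 0 and 0.20 FPKM with vehicle.

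In HepG2, WAKMAR2 stood at 0.28 and 0.21 FPKM with JQ1, against 0.86 and 1.01 FPKM with vehicle. Its ratio of JQ1 to vehicle, 0.262, was the lowest of the 3 lncRNAs in this line. The means were 0.245 ± 0.0495 FPKM with JQ1 and 0.935 ± 0.106 FPKM with vehicle (SD, n = 2 each), and the log2 fold change was -0.95 (SE 0.12, 95% interval -1.27 to -0.62, limma adjusted p = 0.0127). Since 0.5 FPKM is added to levels of this size, the log2 value understates the ratio; it was -1.59 with 0.1 FPKM added and -0.64 with 1 FPKM added, and WAKMAR2 was called under each. Of the 5906 loci tested in HepG2, 3.37% had a lower log2 fold change than WAKMAR2 and 7.69% a lower one than LUCAT1.

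In LM3, WAKMAR2 was listed at 0 and at 0.16 FPKM with JQ1, against 0.71 and 0.61 FPKM with vehicle. Both JQ1 libraries lay below both vehicle libraries here too, as in 39.7% of the loci tested in LM3. The mean of WAKMAR2, 0.370 FPKM, was under the filter and it was not tested. Its ratio of JQ1 to vehicle was 0.121, which rests in part on the value listed at 0. Without the filter the log2 difference was -1.01 (95% interval -1.51 to -0.51, unadjusted p = 0.00422, limma adjusted p = 0.0578), which missed the threshold, and it was -0.81 without JQ1 replicate 1, the library listed at 0. The library listed at 0 also had the fewest loci above 0, 11230, against 11992 in the other JQ1 library and 11866 and 12332 with vehicle, and the part of this in the value of 0 was not tested.

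**Figure D2:**
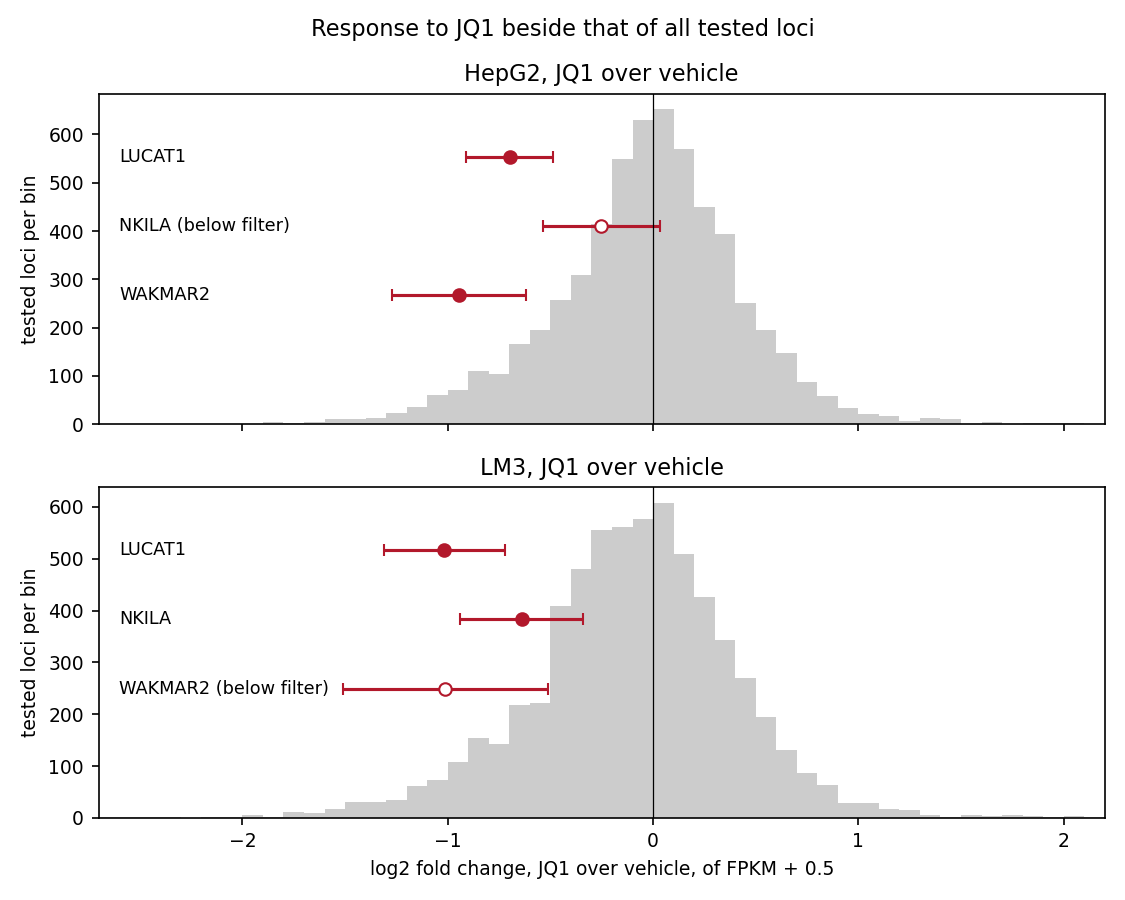
Log2 fold change of FPKM + 0.5, JQ1 over vehicle, in HepG2 (top) and LM3 (bottom); grey bars count the tested loci per bin of 0.1, red points are the 3 lncRNAs with 95% intervals, and open points were below the filter. All 6 points lie left of 0, from -0.25 for NKILA in HepG2 to -1.02 for LUCAT1 in LM3. Their order depends on the 0.5 FPKM added, which shrinks the changes of low loci. Only the interval of NKILA in HepG2 crosses 0.

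Among all tested loci 14.2% were called lower in HepG2 and 15.4% in LM3. NKILA in HepG2 and WAKMAR2 in LM3 were under the filter, and neither was called without it (limma adjusted p = 0.252 and 0.0578). Without the filter NKILA in LM3 was not called either (adjusted p = 0.0544). WAKMAR2 in HepG2 passed the filter through its vehicle libraries, with means of 0.935 FPKM with vehicle and 0.245 FPKM with JQ1. Its being tested was thus tied to its being lower with JQ1, though it was also called without the filter (limma adjusted p = 0.0308). With the filter, calls of the members stood at 2 of 2 tested in HepG2 (LUCAT1 and WAKMAR2) and 2 of 2 in LM3 (LUCAT1 and NKILA), none of them higher. They kept their direction under every alternative, but most calls were lost when 1 library was left out. In HepG2, LUCAT1 remained called without vehicle replicate 1 or replicate 2 (limma adjusted p = 0.0434 and 0.0452), and WAKMAR2 without vehicle replicate 1 (adjusted p = 0.047). Without JQ1 replicate 1 or replicate 2 of HepG2, LUCAT1 had adjusted p = 0.0841 and 0.0827 in limma and WAKMAR2 adjusted p = 0.0841 and 0.0828, and WAKMAR2 had adjusted p = 0.0525 without vehicle replicate 2. Leaving out any LM3 library ended both calls there, with adjusted p from 0.0618 to 0.103 for LUCAT1 and from 0.0944 to 0.17 for NKILA. No locus at all was called in limma in those fits without an LM3 library or a HepG2 JQ1 library, where an unadjusted p under 0.05 was reached by 1605 to 2366 loci.

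The responses of LUCAT1 in LM3 and HepG2 were not called different. LM3 minus HepG2 the difference came to -0.32 on the log2 scale (SE 0.13, 95% interval -0.64 to 0.0018, unadjusted p = 0.051, limma adjusted p = 0.419). Its size depended on the processing, with -0.56 for a pseudocount of 0.1 FPKM (adjusted p = 0.306), -0.14 for 1 FPKM (0.644) and -0.17 after quantile normalization (0.726), and adjusted p over all settings and left-out libraries lay between 0.243 and 0.726 in limma. Only 0.218% of the 5035 loci tested for this difference were called. NKILA and WAKMAR2 could be set side by side without the filter only, where the differences were -0.39 (95% interval -0.71 to -0.065, unadjusted p = 0.0255, limma adjusted p = 0.315) and -0.067 (95% interval -0.60 to 0.47, adjusted p = 0.937). The interval for WAKMAR2 leaves room for a difference in either direction.

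Between the lines the 3 lncRNAs had different standing. With vehicle, LUCAT1 was at 2.33 FPKM in LM3 and 12.4 FPKM in HepG2, NKILA at 1.15 and 0.495 FPKM, and WAKMAR2 at 0.660 and 0.935 FPKM, in that order of lines. LUCAT1 was therefore lower and NKILA higher in LM3, while WAKMAR2 was closer between the lines. The tables of the lines may have been scaled separately, so these levels were not tested against each other. Within a library, where FPKM is per length, LUCAT1 was the highest of the 3 in all 8. It exceeded NKILA by 1.43 and 1.82 times in LM3 with JQ1 and by 2.16 and 1.92 times with vehicle, and by 22.2 and 22.3 times in HepG2 with JQ1 and 25.3 and 24.9 times with vehicle.

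The order of the other two depended on line and treatment. In HepG2, NKILA exceeded WAKMAR2 by 1.21 and 1.57 times in the JQ1 libraries, against 0.547 and 0.515 times in the vehicle libraries, so their order was turned round. In LM3, NKILA was above WAKMAR2 in all 4 libraries, by 3.44 times in JQ1 replicate 2 and by 1.49 and 2.02 times with vehicle. The HepG2 JQ1 levels of NKILA and WAKMAR2 (0.335 ± 0.00707 and 0.245 ± 0.0495 FPKM) were the closest pair of neighbours in that order.

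**Figure D3:**
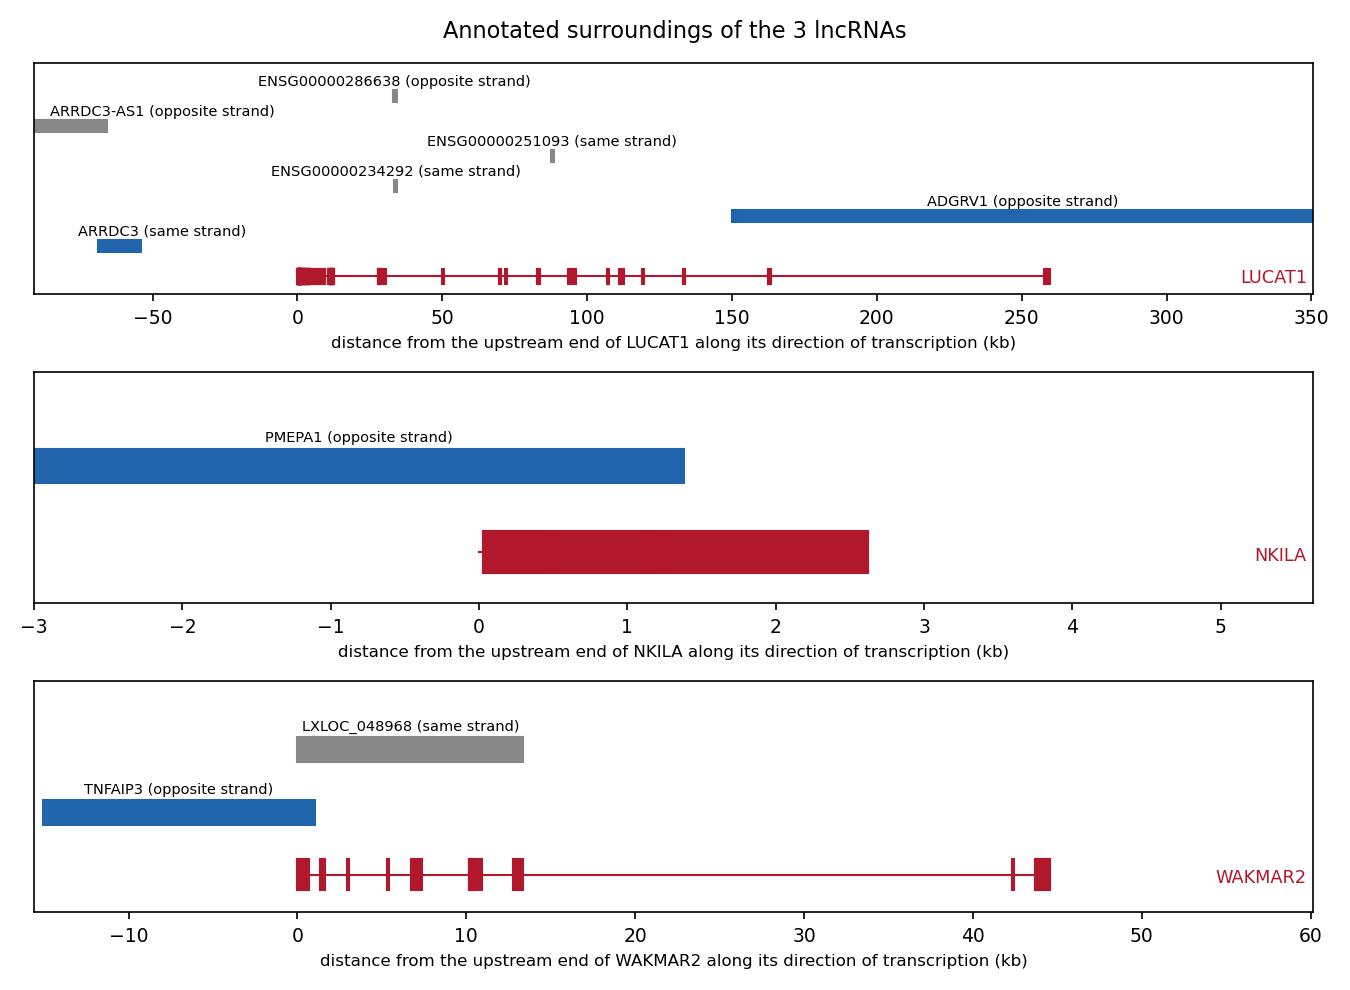
Surroundings of each lncRNA, drawn along its own direction of transcription in kb from its upstream end; red boxes are its GENCODE 29 exons, blue bars coding genes and grey bars other loci of the tables with values. PMEPA1 overlaps NKILA by 1381 bases and TNFAIP3 overlaps WAKMAR2 by 1046 bases, both on the opposite strand, while ADGRV1 runs against the far part of LUCAT1.

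Loci within 100 kb were then read beside the members. LUCAT1 overlaps ADGRV1, a receptor gene of the inner ear and retina, on the opposite strand over 109604 bases, but the exons of the genes share none. No values for the coding neighbours ADGRV1, ARRDC3, PMEPA1, ZBP1 and TNFAIP3 were analysed here. ARRDC3-AS1, 65802 bases upstream of LUCAT1 on the opposite strand, was at 1.69 and 1.80 FPKM in LM3 with JQ1, against 2.41 and 2.63 FPKM with vehicle, and fell (log2 fold change -0.43, limma adjusted p = 0.0396). In HepG2 it was at 1.00 and 1.13 FPKM with JQ1, against 0.98 and 1.23 FPKM with vehicle, and was not called (-0.033, adjusted p = 0.861). The fall at LUCAT1 in HepG2 was thus seen without a call at this neighbour. The 3 small Ensembl loci inside LUCAT1 did not exceed 0.17 FPKM in any library, LINC03004 near WAKMAR2 did not exceed 0.12 FPKM, and NKILA had no other locus with values within 100 kb.

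Other lncRNAs reported in NF-kB signalling and inflammation gave a background for NKILA and WAKMAR2. The list was chosen with earlier results of these data known, so it is no independent background. Of 23 listed, 19 had values, and in HepG2 5 of the 11 tested fell, none rose and 6 were not called, with a median log2 fold change of -0.38 against -0.0056 over all tested loci, of which 14.2% were called lower. In LM3 1 of the 12 tested fell and 11 were not called, where 15.4% of all tested loci were called lower, so the count there was no higher than the background, with a median of -0.22 against -0.084 over all tested loci. The members of the list are all Ensembl loci. Over the tested Ensembl loci alone the median was -0.052 in HepG2 and -0.15 in LM3, closer to that of the list. The 1 that fell in both lines was CARINH (IRF1-AS1 in the names table), an RNA antisense to the interferon factor gene IRF1. CARINH was at 0.64 and 0.45 FPKM in HepG2 with JQ1, against 1.5 and 1.96 FPKM with vehicle (log2 fold change -1.09, SE 0.16, limma adjusted p = 0.0154). In LM3 it was at 0.32 and 0.37 FPKM with JQ1, against 0.98 and 0.87 FPKM with vehicle (log2 fold change -0.75, SE 0.13, adjusted p = 0.024). There CARINH passed the filter through its vehicle libraries, with means of 0.925 FPKM with vehicle and 0.345 FPKM with JQ1. With a filter of 1 FPKM, which CARINH did not pass in LM3, no member of the list was called in that line.

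The other falls of that list in HepG2 were MIR17HG (-0.92), host of a microRNA cluster that promotes growth, FIRRE (-0.51), an RNA of nuclear organisation that is induced by NF-kB in macrophages, SNHG16 (-0.38), a snoRNA host gene, and CHROMR (-0.48), which regulates cholesterol export and interferon genes and was named after its values were seen. FIRRE was at 14.09 and 14.13 FPKM with JQ1 in HepG2, against 19.57 and 21.06 FPKM with vehicle. MIR17HG and SNHG16 are best known for growth rather than for inflammation. BISPR, an interferon-induced RNA, was at 1.78 and 2.78 FPKM with JQ1 in HepG2, against 3.98 and 4.37 FPKM with vehicle, and missed the threshold (limma adjusted p = 0.0516). In LM3 it was at 1.78 and 2.23 FPKM with JQ1, against 2.57 and 1.82 FPKM with vehicle (-0.097, adjusted p = 0.722). Some uncalled members of the list leaned upward, among them HCP5 (0.29 in HepG2 and 0.46 in LM3) and MIR31HG (0.15 and 0.45). BISPR, HCP5 and MIR31HG were named after their values were seen. The list's count in HepG2 was 1 and 3 without a vehicle library and 0 without a JQ1 library, and its median stayed negative in both lines under every setting.

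The stress response list, also chosen with earlier results of these data known, gave a background for LUCAT1. Of 20 listed lncRNAs 19 had values, and in HepG2 4 of the 14 tested rose and none fell (1 fell after quantile normalization or rescaling; median -0.031, and 0.0074 with libraries centred on their median), where 10.8% of all tested loci were called higher and 14.2% lower. In LM3 4 of the 16 tested rose and 3 fell (median 0.045 as deposited, and -0.032 without vehicle replicate 1), where 7.92% of all tested loci were called higher and 15.4% lower. NEAT1, the scaffold of paraspeckles (0.98 in HepG2 and 0.64 in LM3), and SNHG12, a snoRNA host gene (0.40 and 0.47), rose in both lines. The other rises in HepG2 were MIR22HG (0.59) and PURPL (0.37), a p53-induced RNA. In LM3 LINC01116, reported in hypoxia, was at 2.26 and 1.69 FPKM with JQ1, against 4.60 and 4.62 FPKM with vehicle (-1.06, limma adjusted p = 0.0148), and MIR34AHG, host of a p53-induced microRNA, fell by 0.86. Without the filter 1 lncRNA of the list rose in HepG2, and 2 rose and 2 fell in LM3, and with a library of LM3 left out none was called there. In HepG2 the count of rises was 1 without either vehicle library and 0 without either JQ1 library. The other calls of the list in LM3 were TP53TG1 (0.51) and MALAT1 (0.34), which rose, and UCA1 (-0.53), which fell. GABPB1-AS1, reported in oxidative stress like LUCAT1, was at 10.16 and 9.95 FPKM in HepG2 with JQ1, against 12.24 and 11.34 FPKM with vehicle, and was not called (-0.22, limma adjusted p = 0.106). In LM3 it was at 5.95 and 5.50 FPKM with JQ1, against 6.91 and 7.53 FPKM with vehicle, and was not called either (-0.31, adjusted p = 0.0826). TP53TG1, MALAT1, UCA1 and GABPB1-AS1 too were named after their values were seen.

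**Figure D4:**
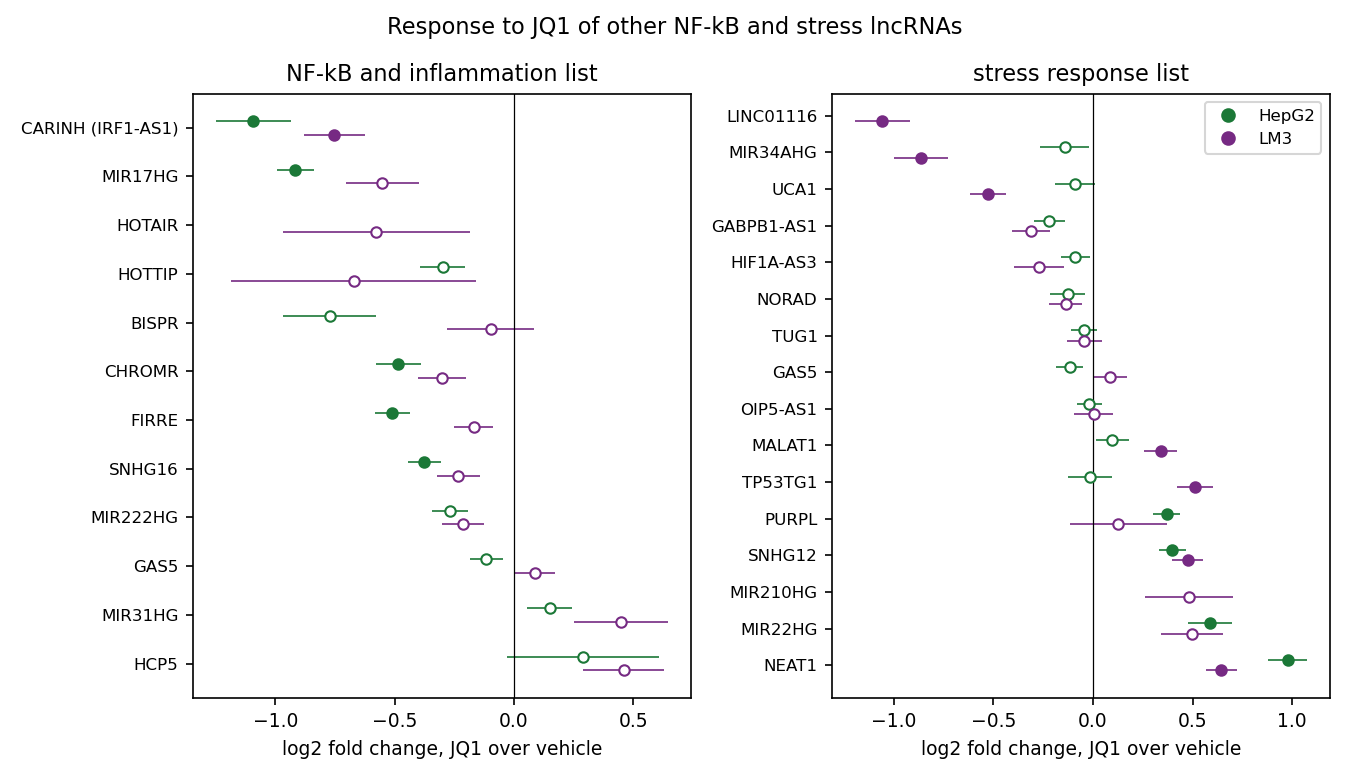
Log2 fold change with its SE, JQ1 over vehicle, of the tested lncRNAs in the NF-kB and inflammation list (left) and the stress response list (right), in HepG2 (green) and LM3 (purple); filled points were called at an adjusted p under 0.05. Filled points on the left lie below 0, 5 in HepG2 and 1 in LM3, while those on the right lie on both sides in LM3 and above 0 in HepG2.

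Among 819 named Ensembl lncRNAs tested in both lines, those with the most similar profiles were found by the root mean square difference of log2(FPKM + 0.5) over the 8 libraries, after subtraction of each locus's mean. Line and treatment both enter this measure, and the libraries share their depth and table. Matches were thus chosen in part for changing with JQ1 as the member does, and their calls are no separate result. WAKMAR2 was most like AGAP2-AS1 (0.088), LINC00623 (0.148), IRF1-AS1 (0.155) and PRKCH-AS1 (0.160), where the median over all candidates was 0.567. AGAP2-AS1 averaged 3.23 FPKM with JQ1 and 6.23 FPKM with vehicle in HepG2, and 2.43 and 4.72 FPKM in LM3. As that choice favours, all 4 were called lower in both lines, where 8.70% of the loci tested in both were. Their log2 fold changes lay between -1.09 and -0.83 in HepG2, and between -1.0 and -0.75 in LM3.

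NKILA was most like CCDC18-AS1 (0.0877), LINC00294 (0.0919), TMED2-DT (0.119) and ZNF674-AS1 (0.121), against a median of 0.392. LINC00294 averaged 6.17 FPKM with JQ1 and 8.39 FPKM with vehicle in HepG2, and 8.97 and 13.7 FPKM in LM3, the same order of the 4 groups as NKILA. Of the 4, LINC00294 alone was called in HepG2, and all were called lower in LM3. LINC00294 had a log2 fold change of -0.41 in HepG2 (limma adjusted p = 0.023) and -0.58 in LM3 (adjusted p = 0.0189). By this measure LUCAT1 had no match as close, but its median over all candidates, 1.3, was also the largest. Its nearest were DHRS4-AS1 (0.334), DNAH17-AS1 (0.353), SERTAD4-AS1 (0.429) and DLEU1 (0.437). Pearson r over the 8 libraries ran from 0.955 to 0.974 for these 4. It ran from 0.946 to 0.98 for the matches of NKILA and from 0.955 to 0.991 for those of WAKMAR2. DHRS4-AS1 averaged 4.40 FPKM with JQ1 and 9.15 FPKM with vehicle in HepG2, and 0.780 and 0.950 FPKM in LM3. Each of the 4 fell in HepG2 and none was called in LM3, where LUCAT1 fell.

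**Figure D5:**
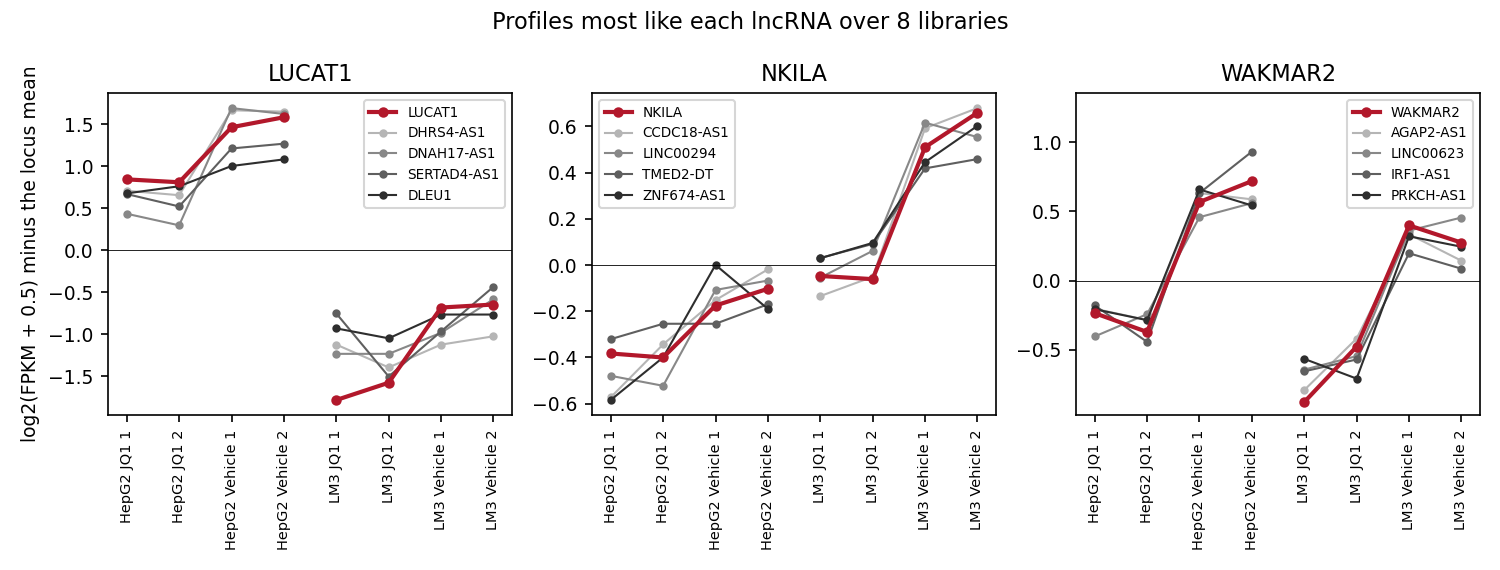
Log2(FPKM + 0.5) minus the locus mean over the 8 libraries for each lncRNA (red) and the 4 lncRNAs with the most similar profiles (grey to black); lines only join points of 1 line for reading. The matches were chosen on these same 8 libraries. WAKMAR2 and its matches drop in the JQ1 libraries of both lines, and LUCAT1 lies lowest of its set in LM3 with JQ1.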

How the data were processed

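RNA of 8 libraries was sequenced in pairs of reads, per the labels' protocols. The authors deposited FPKM, rounded to 2 decimals, in 1 table per line, per the file headers. The submitters' processing notes name Bowtie 0.12.2 and, as builds, hg19 and mm8, with no role for any of them, but 99.9% of 8453 Ensembl IDs with values lie on the same chromosome in GENCODE 29 (GRCh38) and 83.9% have the same start, so GRCh38 is used. The counting tool, the strand setting and the total reads: not given in the sources used here. Low values of loci of 200 to 400 bp lay within 0.1 of a whole number of fragments in 36.9% to 57.5% of cases per library. The size of 1 fragment was fitted to these same values, so the 20.0% of an even spread is no fair baseline. Counts were not recovered, and only the spread between libraries gives the precision.

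Libraries were grouped by title. The JQ1 response was fitted with limma 3.58.1 under R 4.3.3 (JQ1 against vehicle, trend and robust fitting, two-sided), and the difference between lines in 1 fit over 8 libraries. Other pseudocounts, filters, scalings and left-out libraries were tried. The limma step was tested on simulated normal log2 values with the same spread for every locus of a line. Such values are not rounded and hold no listed zeros, so that test does not cover loci as low as NKILA and WAKMAR2. Symbols came from the names table (3538 of 9585 Ensembl loci with values) and promoter sequences from RefSeq (GRCh38.p14). Named were the 3 members, all loci within 100 kb, up to 4 called lncRNAs of each list by p, and the 4 most similar profiles. Members, lists and tests were chosen with earlier results of these data known. Tables were handled with pandas 2.3.3 and NumPy 2.4.6 in Python 3.11.15, and figures drawn with matplotlib 3.10.9.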

Additional observations from a re-analysis of the deposited data

How the results depend on the processing

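The fold changes of the 3 lncRNAs stayed negative under every alternative run. Their calls held under all settings that kept all libraries and tested them, save NKILA in LM3 without the filter. Over those settings LUCAT1 lay between -0.75 and -0.66 in HepG2, and between -1.29 and -0.81 in LM3, and the untested WAKMAR2 in LM3 from -2.23 to -0.62 with the pseudocount, so the size of low loci depends on it. Counts of calls depended on the tests made. In HepG2 1480 loci were called, against 852 without the filter, 975 with a filter of 1 FPKM and 430 with Ensembl loci only, and from 0 to 519 with a library left out. In LM3 1511 were called, against 857 without the filter, 378 with Ensembl loci only and 0 in limma with any library left out. For the difference between lines 11 were called, against 7 with a pseudocount of 0.1, 19 with 1, 94 without the filter, 7 with a filter of 1 FPKM, 20 centred on the median, 5 after quantile normalization, 17 rescaled outside ribosomal RNA and mitochondrial loci, 5 with Ensembl loci only and from 0 to 3 with a library left out. The cause was not tested, beyond the fewer loci or libraries that such alternatives hold. With replicate numbers as a block, 1453 and 1215 loci were called in HepG2 and LM3 and 0 for the difference in limma (505 at an unadjusted p under 0.05), and no call of the 3 lncRNAs changed. Same-numbered libraries deviated together with r = -0.035 in HepG2 and 0.135 in LM3 across loci, and no label says what the numbers share. Depth per locus is unknown, which limits what can be said of levels under 0.5 FPKM.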
